A study of Mus musculus with 48 samples.

Results

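The genes that carry peptides onto MHC class I molecules were followed through the development of red pulp macrophages (RPMs), the iron-recycling macrophages of the spleen. They were 10 genes fixed by name and not by any measured value, among 54735 genes counted. Earlier results of these data were known when they were chosen. *B2m*, *H2-K1* and *H2-D1* encode the chains of the molecule, *Tap1*, *Tap2* and *Tapbp* the peptide transporter and its link to the empty molecule, *Psmb8*, *Psmb9* and *Psmb10* the catalytic subunits of the immunoproteasome, and *Nlrc5* the class I transactivator. RNA-seq libraries came from 3 populations sorted from the spleen, with 4 mice for each of 2 genotype labels, 24 libraries in all. Monocytes were gated as Ly6Glo CD11bhi F4/80- cells, pre-RPMs as Ly6Glo CD11bhi F4/80lo cells and RPMs as Ly6Glo CD11blo/- F4/80hi cells. All mice were Balb/c and 10 weeks old, with no treatment given in the labels, and were either wild type (WT) or labelled *Il1rl1-/-*, that is mutant in the gene of the receptor for the cytokine IL-33. A sorted population from the whole spleen can hold other cells, and fewer cells of a type and less RNA per cell cannot be told apart in these values.

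Counts of *Il1rl1* itself went against the label in monocytes and pre-RPMs, where libraries labelled *Il1rl1-/-* had 42 to 76 counts and WT libraries 12 to 28. Which exons these reads came from was not analysed here, so the groups are named by their label throughout. Total counts were 3562367 to 6559454 per library, and the single gene *Gm42418* took 24.4% to 38.8% of them. The summed level of 12 RPM markers was 7564 to 10450 CPM (counts scaled to a common library size) in RPMs against 31.0 to 357 CPM in the other populations. The summed level of 10 monocyte markers had higher medians in pre-RPMs (2668 CPM in WT mice, 3050 CPM labelled *Il1rl1-/-*) than in monocytes (1713 and 2205 CPM). The ranges overlapped, at 2194 to 3603 CPM in pre-RPMs and 888 to 3371 CPM in monocytes. RPMs were at 290 to 347 CPM. Libraries of monocytes also held transcripts of NK cells (588 to 2155 CPM over 10 markers, all counted) and of neutrophils (755 to 2441 CPM over 8 markers, all counted), against 14.9 to 180 CPM and 1.54 to 391 CPM in the other populations. Those of plasma cells, over 5 markers, were at 334 to 1729 CPM in monocytes and at 10.3 to 342 CPM in the other populations. RPM libraries held 769 to 21580 CPM of 7 erythroid markers. They also held 274 to 398 CPM of 5 eosinophil markers, against 6.58 to 78.4 CPM in the other populations. Of these 5, only 4 passed 3 counts in any WT RPM library and 3 in any labelled *Il1rl1-/-*. The part of these other transcripts in the results below was not tested.

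In cells of most tissues, proteins are cut by the proteasome, and the peptides are pumped into the endoplasmic reticulum by the transporter *Tap1*-Tap2. There tapasin, the product of *Tapbp*, holds the transporter next to an empty class I heavy chain paired with beta 2-microglobulin, the product of *B2m*, until a peptide binds. The loaded molecule then moves to the cell surface, where CD8 T cells read it. Interferons raise these genes together, through IRF1 and through NLRC5, which acts at a conserved promoter element of X and Y boxes bound by RFX, CREB and NF-Y factors.

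The promoters of the 3 chain genes are shown because they share the order of X2 core and Y box described above, and the short stretch between *Tap1* and *Psmb9* because both genes start from it. RefSeq entries for GRCm38.p6 were matched for 8 of the 10 genes, that is all but *Tap2* and *Nlrc5*. Each is the stretch of 250 bases before the RefSeq start, 5′ to 3′ on the strand of the gene, with capitals on matches to GGGANNCCC (kappaB), TTTCNNTTC (core of the interferon-stimulated response element), TGACG (core of the X2 box) and ATTGG (Y box), or their complements, searched on both strands. *B2m* lies at chr2:122147437-122147686 (plus strand), *H2-K1* at chr17:34000334-34000583 (minus strand) and *H2-D1* at chr17:35262844-35263093 (plus strand).
B2m: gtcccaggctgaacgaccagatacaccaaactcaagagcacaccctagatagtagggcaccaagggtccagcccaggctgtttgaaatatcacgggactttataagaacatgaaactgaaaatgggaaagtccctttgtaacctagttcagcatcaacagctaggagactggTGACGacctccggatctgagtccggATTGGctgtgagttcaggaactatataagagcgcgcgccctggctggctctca
H2-K1: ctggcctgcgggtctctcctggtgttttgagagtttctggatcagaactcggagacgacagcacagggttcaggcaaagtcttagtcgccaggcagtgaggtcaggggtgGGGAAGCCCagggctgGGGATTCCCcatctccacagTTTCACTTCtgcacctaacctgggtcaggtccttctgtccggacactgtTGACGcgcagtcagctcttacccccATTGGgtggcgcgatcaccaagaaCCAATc
H2-D1: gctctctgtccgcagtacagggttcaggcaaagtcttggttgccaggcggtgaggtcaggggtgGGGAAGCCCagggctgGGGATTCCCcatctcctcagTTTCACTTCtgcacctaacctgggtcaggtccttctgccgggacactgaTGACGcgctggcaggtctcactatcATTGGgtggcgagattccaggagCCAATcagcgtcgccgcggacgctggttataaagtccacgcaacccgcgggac

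In all 3 sequences, shown for this reason, the X2 core was followed by 20 letters and then the Y box on the strand of the gene. The stretches of *Psmb8* and *Psmb10* matched none of the motifs, and those of *Tap1*, *Tapbp* and *Psmb9* lacked the cores in this order. Each stretch depends on the RefSeq start used. Those of *Tapbp* (chr17:33919228-33919477), *Psmb8* (chr17:34197945-34198194), *Psmb9* and *H2-D1* lie wholly within the gene spans used for counting, which are given below. Other start sites were not searched. Of the promoters of 27025 genes in the same RefSeq table, 0.296% held these cores in this order with 15 to 30 letters between them, whereas TGACG alone was in 19.8% and ATTGG alone in 37.5%. *H2-K1* and *H2-D1* also held GGGANNCCC at 2 places each, the second of which reads on both strands, where 5.44% of promoters held it, and a match to TTTCNNTTC, found in 7.3%. Aligned to each other, the stretches of *H2-K1* and *H2-D1* were identical at 180 of 297 positions (60.6%). The X2 core lies 55 bases before the start in *H2-K1* and 101 bases in *H2-D1*. The stretches thus overlap only in part, and the 297 positions include unpaired ones, which lower the share. Other pairs among these genes, *B2m* and *Tap1* gave 45.1% to 49.8%. A match is a description of letters and not of a bound site. The sequences are those of the C57BL/6J reference, and Balb/c mice carry another haplotype of this region.

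*Tap1* and *Psmb9* are read in opposite directions on chromosome 17, with 225 bases between their RefSeq starts (chr17:34187331-34187555). The stretch is written on the strand of *Tap1*, with matches to TGACG and to CCAAT, the complement of ATTGG, in capitals. On neither strand do these matches follow the order of X2 core and Y box seen in the chain genes.
Tap1-Psmb9: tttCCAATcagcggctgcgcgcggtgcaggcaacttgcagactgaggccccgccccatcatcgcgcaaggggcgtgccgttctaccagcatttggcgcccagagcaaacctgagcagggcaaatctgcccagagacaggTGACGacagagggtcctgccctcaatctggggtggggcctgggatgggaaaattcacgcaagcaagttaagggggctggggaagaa

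Of the 10 genes, 7 lie on chromosome 17 of GRCm38, in the mouse MHC. *Tapbp* runs from chr17:33915899-33929292, *H2-K1* from chr17:33996017-34000333, *Psmb9* from chr17:34181988-34187764, *Tap1* from chr17:34187553-34197225, *Psmb8* from chr17:34197721-34201454, *Tap2* from chr17:34203527-34216321 and *H2-D1* from chr17:35262730-35267499. *B2m* lies at chr2:122147686-122153083, *Nlrc5* at chr8:94434356-94527272 and *Psmb10* at chr8:105935735-105938444. Values are counts over all exons of a gene, UTRs included. *Tap1* and *Psmb9* overlap by their annotated ends on opposite strands, and the counting used the strand. Of all 50-base words in their transcripts, *H2-D1* shared 12.8% and *H2-K1* 9.63% with other genes, chiefly each other and H2-Q genes, so their counts are less certain than those of *B2m*, *Nlrc5*, *Psmb9* and *Psmb10*, which shared none. *H2-L*, a further heavy chain of Balb/c mice, matched no gene name here, and where its reads were counted was not tested.

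All 10 genes were expressed in all 24 libraries, with at least 56 counts each. Levels per length were compared as CPM per kilobase of exon, and their order depends on the annotated exon lengths. *B2m* was the highest at 400.0 ± 73.7 (mean ± SD, n = 24), followed by *H2-D1* at 199 ± 25.8 and *H2-K1* at 100.4 ± 13.9. *Tapbp* had 34.5 ± 5.95, *Psmb8* 22.8 ± 3.89 and *Psmb10* 14.2 ± 2.32 CPM per kilobase. *Tap2* (7.94 ± 1.33) and *Tap1* (7.90 ± 1.29), the partners of the transporter, could not be ordered, since *Tap2* was above *Tap1* in 11 of 24 libraries. *Psmb9* had 4.73 ± 0.690 and *Nlrc5* 3.74 ± 0.718 CPM per kilobase, with *Psmb9* above *Nlrc5* in 21 of 24 libraries. Every other neighbour in this order was above the next in 24 of 24 libraries.

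**Figure D1:**
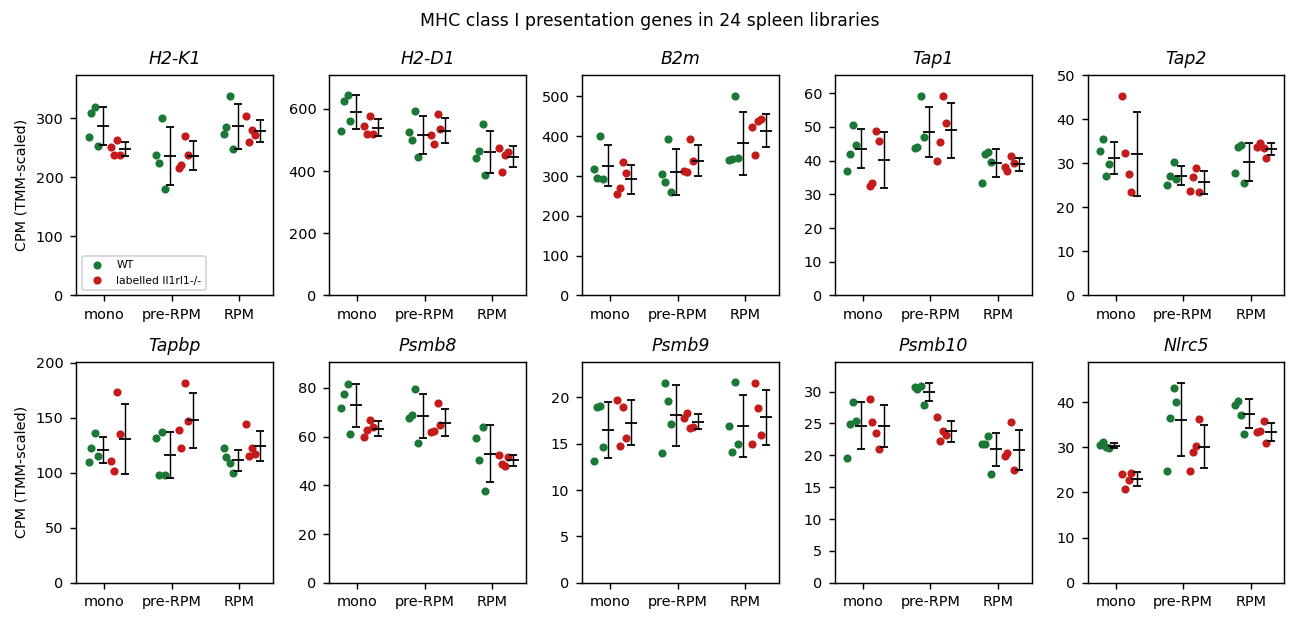
Level of each gene in every library, as TMM-scaled CPM on a linear axis from 0, by population and genotype label. Points are single mice (4 per group) and black bars the mean ± SD. All genes were expressed in all groups. The largest step in fold, from pre-RPMs to RPMs in *Psmb10* of WT mice, went from 29.96 to 20.9 CPM.

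These levels moved little compared with the rest of the transcriptome. The range of the 6 group means was 0.13 (*Psmb9*) to 0.69 (*Nlrc5*) in log2 CPM, with a median of 0.40 over the 10 genes. The median range was 0.85 over all 12842 genes kept, and 0.71 over the 6708 genes with a mean of at least 10 CPM. In 120 tests, 10 genes in 12 comparisons, 13 values passed edgeR's quasi-likelihood F test at an adjusted p under 0.05 over all genes tested, 4 higher and 9 lower. The largest change among the 120 was 1.48-fold (*Psmb10*), and no 95% interval reached 2-fold in either direction. At an adjusted p under 0.01 with a log2 fold change past 1 in size, none was called between populations. By that rule 3.57% of all genes were called from monocytes to pre-RPMs, 24.7% from pre-RPMs to RPMs and 23.9% from monocytes to RPMs in WT mice. In mice labelled *Il1rl1-/-* these shares were 4.85%, 26% and 25.9%.

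Between pre-RPMs and RPMs of WT mice, 3 of the 10 genes fell and none rose, where 50.4% of all genes tested were called, 24.8% lower and 25.6% higher. The 3 were *Tap1*, *Psmb8* and *Psmb10*. Between the same populations labelled *Il1rl1-/-*, 4 fell (*H2-D1*, *Tap1*, *Tapbp* and *Psmb8*) and *Tap2* rose, where 54.1% of all genes were called, 26.7% lower and 27.3% higher. The median change of the 10 genes was −0.13 in log2 in both, and the median size was 0.22 and 0.27, against 0.49 and 0.50 over all genes tested. Counted in both directions together, these totals were at or below the share of all genes called.

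**Figure D2:**
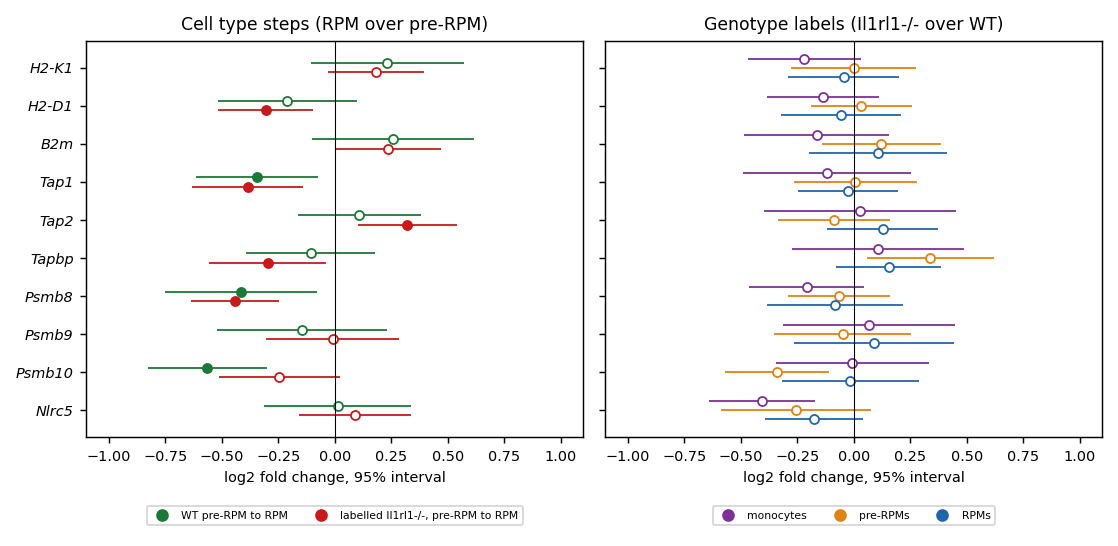
Log2 fold changes of the 10 genes with 95% intervals, from pre-RPMs to RPMs in each genotype (left) and between genotype labels in each population (right). Filled points passed edgeR's test at an adjusted p under 0.05 over all genes tested and open points did not. Filled points are seen only on the left, where 3 were called in WT mice and 5 in mice labelled *Il1rl1-/-*.

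*Psmb10*, the trypsin-like subunit of the immunoproteasome, gave the largest change in fold among all tests of the 10 genes, called under the WT label alone. In WT pre-RPMs of mice 1 to 4 it was at 30.7, 30.4, 30.9 and 27.8 CPM, and in WT RPMs at 21.8, 21.8, 22.97 and 17.1 CPM. The groups did not overlap, and *Psmb10* fell by 0.56 in log2 (SE 0.12, edgeR's adjusted p = 0.00151). In pre-RPMs labelled *Il1rl1-/-* it was at 26.0, 22.2, 23.8 and 23.1 CPM, and in RPMs at 19.95, 20.4, 25.2 and 17.7 CPM. These overlapped, and the change of −0.25 was not called. The difference of these changes was 0.34 (95% interval −0.02 to 0.69, adjusted p = 0.701), so that it was not shown to differ between the labels.

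*Psmb8*, the chymotrypsin-like subunit, fell on the way to RPMs under both labels. It was at 67.7, 69.0, 79.6 and 57.3 CPM in WT pre-RPMs and at 59.5, 50.5, 64.1 and 37.9 CPM in WT RPMs. The ranges overlapped in WT mice, with a change of −0.42 (SE 0.16, edgeR's adjusted p = 0.0386). Labelled *Il1rl1-/-*, it was at 61.9, 62.2, 73.8 and 64.9 CPM in pre-RPMs and at 52.5, 48.9, 47.8 and 51.8 CPM in RPMs, with no overlap. The change there was −0.44 (SE 0.09, edgeR's adjusted p = 0.000749). The call in WT mice was lost in 5 of the 8 fits that each left out a library (adjusted p 0.0139 to 0.121), and that in mice labelled *Il1rl1-/-* in none of 8. *Psmb9*, the remaining subunit, was at 13.2 to 21.6 CPM over all 24 libraries and was called in no comparison.

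*Tap1*, a partner in the peptide pump, also fell under both labels. It was at 43.7, 44.1, 59.3 and 46.9 CPM in WT pre-RPMs and at 33.5, 42.0, 42.5 and 39.7 CPM in WT RPMs, without overlap, a change of −0.35 (SE 0.13, edgeR's adjusted p = 0.0332). Labelled *Il1rl1-/-*, it was at 40.0, 45.6, 59.2 and 51.3 CPM in pre-RPMs and at 38.1, 36.8, 41.4 and 39.2 CPM in RPMs, which overlapped, and it fell by 0.39 (SE 0.12, edgeR's adjusted p = 0.0105). In WT mice the call was lost without pre-RPM library 3, RPM library 1 or RPM library 4, with DESeq2, with every gene of at least 1 count and in the fit to all 24 libraries (adjusted p up to 0.119 over all settings). In mice labelled *Il1rl1-/-* it held without any single library and was lost in the fit to all 24 libraries (edgeR's adjusted p = 0.0576).

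*Tap2*, the other partner, did not follow *Tap1*. In RPMs labelled *Il1rl1-/-* it was at 33.6, 34.7, 33.5 and 31.3 CPM, all above the 23.6, 27.0, 28.9 and 23.5 CPM of pre-RPMs. It rose by 0.32 (SE 0.10, edgeR's adjusted p = 0.0151), and the call was lost without pre-RPM library 1 or 4 (adjusted p up to 0.0544). In WT mice it was at 25.1, 27.0, 30.4 and 26.4 CPM in pre-RPMs and at 27.8, 33.8, 34.2 and 25.6 CPM in RPMs, and was not called. The difference of the changes between labels was 0.23 (95% interval −0.10 to 0.56, edgeR's adjusted p = 0.813).

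*Tapbp*, at the peptide-loading step, was called lower in RPMs in mice labelled *Il1rl1-/-*, where it was at 139, 123, 182 and 147 CPM in pre-RPMs and 145, 115, 122 and 117 CPM in RPMs. The change was −0.30 (SE 0.12, edgeR's adjusted p = 0.0497), with overlapping groups, and the call was lost in 6 of the 8 fits without a library and in 4 of 7 other fits (adjusted p up to 0.196). In WT mice it was at 132, 98.4, 137 and 98.0 CPM and then 122, 115, 109 and 99.99 CPM, and was not called. The difference of the changes was −0.18 (95% interval −0.57 to 0.22, edgeR's adjusted p = 0.913).

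Of the heavy chains, which hold the peptide, *H2-D1* was called at this step. It was at 516, 487, 583 and 536 CPM in pre-RPMs labelled *Il1rl1-/-* and at 475, 396, 453 and 460 CPM in RPMs, below all pre-RPM values. It fell by 0.31 (SE 0.10, edgeR's adjusted p = 0.0161), and the call was lost without RPM library 2 (adjusted p = 0.0675) and in the fit to all 24 libraries (0.0802). In WT mice *H2-D1* was at 527, 501, 594 and 446 CPM in pre-RPMs and 443, 464, 552 and 386 CPM in RPMs, which overlapped, and the change was not called. *H2-K1* was called in no comparison. It was at 238, 224, 300.1 and 181 CPM in WT pre-RPMs and at 273, 285, 338 and 248 CPM in WT RPMs. Labelled *Il1rl1-/-*, it was at 215, 221, 270.4 and 238 CPM in pre-RPMs and 304, 259, 279 and 272 CPM in RPMs.

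Within single libraries, the ratio of *H2-D1* to *H2-K1* set RPMs apart in every mouse. This ratio was chosen after its values were seen and is given without a test. In counts per exon length it was 2.00, 2.06, 2.04 and 2.25 in WT monocytes, 2.24, 2.26, 2.00 and 2.499 in WT pre-RPMs, and 1.64, 1.65, 1.65 and 1.58 in WT RPMs. Labelled *Il1rl1-/-*, it was 2.18, 2.21, 2.21 and 2.21 in monocytes, 2.43, 2.23, 2.18 and 2.27 in pre-RPMs, and 1.58, 1.55, 1.64 and 1.71 in RPMs. All 8 RPM libraries were thus below all 16 others. How often ratios of other gene pairs part RPMs in this way was not counted. Of all genes tested, 50.4% were called from pre-RPMs to RPMs in WT mice and 54.1% in mice labelled *Il1rl1-/-*. The fall from pre-RPMs to RPMs was −0.46 in log2 in WT mice and −0.49 in mice labelled *Il1rl1-/-*, and stayed between −0.52 and −0.41 when any library was left out. Over the same step, the log2 ratio of *H2-D1* to *B2m* changed by −0.47 in WT mice and −0.54 in mice labelled *Il1rl1-/-*, without overlap. That of *H2-K1* to *B2m* changed by −0.006 and −0.05, with overlap. These ratios too were chosen after values were seen and are given without a test. A ratio within a library shows unequal change of the counts and not which of them moved. Reads of *H2-L* or of H2-Q genes may be among these counts, and their part in the ratio was not tested.

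**Figure D3:**
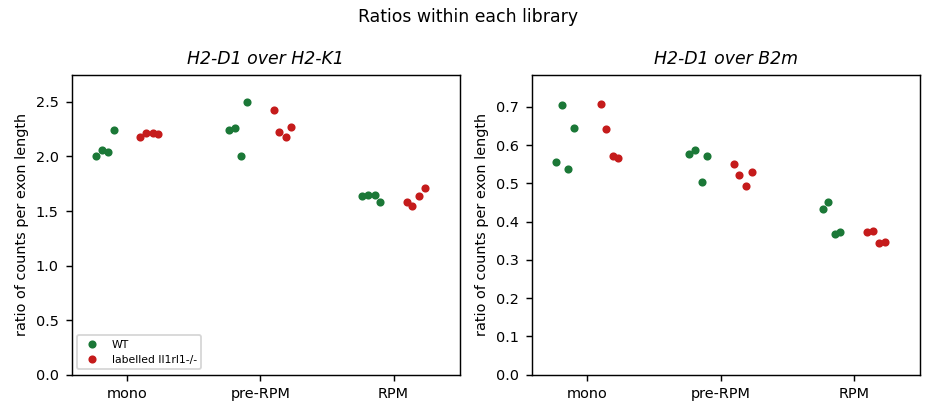
Ratio of counts per exon length within each library, for *H2-D1* over *H2-K1* (left) and *H2-D1* over *B2m* (right), on linear axes from 0. Points are single mice. The RPM libraries sit at 1.55 to 1.71 (left) and at 0.345 to 0.451 (right), below all monocyte and pre-RPM libraries in both panels.

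*B2m*, the light chain shared by class I molecules, had its highest group mean in RPMs under both labels. In mice labelled *Il1rl1-/-* it was at 256, 270.1, 336 and 307 CPM in monocytes, 312, 310.4, 394 and 337 CPM in pre-RPMs, and 423, 353, 438 and 442 CPM in RPMs. From monocytes to RPMs the groups did not overlap, and *B2m* rose by 0.51 (SE 0.13, edgeR's adjusted p = 0.00625), also without any single library. From pre-RPMs to RPMs, with a log2 fold change of 0.24, it was called with the mouse number as a block (edgeR's adjusted p = 0.0363). In the same fit without a block it was not called (0.0834). It was called without a block among genes of at least 10 counts in every library (edgeR's adjusted p = 0.04). Leaving out pre-RPM library 3 or RPM library 2 also gave a call (0.0317 and 0.0261). In WT mice *B2m* was at 318, 296, 400.3 and 292 CPM in monocytes, 305, 284, 392 and 260.3 CPM in pre-RPMs, and 342, 343, 501 and 345 CPM in RPMs, and was called in no comparison. The difference of the monocyte to RPM change between the labels was 0.28 (95% interval −0.18 to 0.74, edgeR's adjusted p = 1.0).

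*Nlrc5*, the transactivator, was the gene with the widest range. In mice labelled *Il1rl1-/-* its level was 24.1, 20.8, 22.8 and 24.3 CPM in monocytes. It was 24.8, 29.0, 30.3 and 36.3 CPM in pre-RPMs and 33.4, 33.5, 35.7 and 30.9 CPM in RPMs. The monocyte libraries were below all others of this label, and *Nlrc5* rose by 0.54 from monocytes to RPMs (SE 0.11, edgeR's adjusted p = 0.0016). In WT mice it was at 30.4, 31.2, 30.1 and 29.8 CPM in monocytes, 24.7, 36.5, 43.1 and 40.0 CPM in pre-RPMs, and 39.4, 40.3, 37.1 and 33.0 CPM in RPMs. From WT monocytes to WT RPMs it rose by 0.28 (SE 0.11, edgeR's adjusted p = 0.0497), a call lost in 7 of 8 fits without a library and in 5 of 7 other fits, DESeq2 and the mouse number as a block (adjusted p = 0.0834) among them.

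Over the whole course from monocytes to RPMs, 2 of 10 genes were called in WT mice, *Nlrc5* higher and *Psmb8* lower (46% of all genes tested were called, 23.5% higher and 22.5% lower). *Psmb8* was at 71.6, 77.3, 81.7 and 61.3 CPM in WT monocytes and fell by 0.48 to RPMs (SE 0.17, edgeR's adjusted p = 0.0374), a call lost in 6 of 8 fits without a library. With the mouse number as a block, *H2-D1*, at 529, 626, 645 and 562 CPM in WT monocytes, was also called lower (log2 fold change −0.38, edgeR's adjusted p = 0.0491, against 0.0586 without). Without a block, *H2-D1* was called lower by DESeq2 (adjusted p = 0.0261) and in the fit to all 24 libraries (edgeR's adjusted p = 0.0136). It was also called without monocyte library 1 (edgeR's adjusted p = 0.0469) or RPM library 3 (0.0247). In mice labelled *Il1rl1-/-*, 3 of 10 were called, *B2m* and *Nlrc5* higher and *Psmb8* lower by 0.33 (SE 0.10, edgeR's adjusted p = 0.0136), where 49.5% of all genes were called, 26% higher and 23.5% lower. The call of *Psmb8* was lost with every gene of at least 1 count (adjusted p = 0.108), and DESeq2 also called *H2-D1* lower (log2 fold change −0.30, adjusted p = 0.0075). The summed markers of NK cells, neutrophils and plasma cells were lower in all RPM libraries than in all monocyte libraries, with the values given above.

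From monocytes to pre-RPMs, none of the 10 genes was called under either label by edgeR or DESeq2. Of all genes, 14.6% were called in WT mice and 17.1% in mice labelled *Il1rl1-/-*. At an unadjusted p under 0.05 edgeR gave 0 of 10 in WT mice and 1 of 10 in mice labelled *Il1rl1-/-*, which was *Nlrc5*, against 31.9% and 30.6% of all genes. With the mouse number as a block, *Nlrc5* (log2 fold change 0.39, edgeR's adjusted p = 0.0429) and *Tap1* (0.30, edgeR's adjusted p = 0.0488) were called higher in pre-RPMs labelled *Il1rl1-/-*. The intervals of the 10 genes allowed changes of up to 1.55-fold in WT mice (*H2-K1*) and 1.65-fold in mice labelled *Il1rl1-/-* (*Tap2*).

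Between libraries labelled *Il1rl1-/-* and WT, none of the 10 genes was called in monocytes, pre-RPMs or RPMs, by edgeR or by DESeq2. Few genes were called at all, 0.0614%, 0.552% and 0.233% of those tested, so that 0 of 10 is near this background. At an unadjusted p under 0.05 edgeR gave 1 of 10 for monocytes, 2 for pre-RPMs and 0 for RPMs, against 3.59%, 8.8% and 7.27% of all genes. In monocytes it was *Nlrc5*, for which all libraries labelled *Il1rl1-/-* were below all WT libraries, with a log2 fold change of −0.41 (95% interval −0.64 to −0.17, edgeR's adjusted p = 0.831). Of all genes, 2.32% had groups that did not overlap in monocytes. In pre-RPMs they were *Psmb10*, without overlap (−0.34, 95% interval −0.57 to −0.11, edgeR's adjusted p = 0.3), and *Tapbp*, with overlap (0.34, 95% interval 0.06 to 0.62, edgeR's adjusted p = 0.462). In pre-RPMs, 4.96% of all genes did not overlap. In RPMs the intervals of the 10 genes allowed changes of up to 1.36-fold (*Psmb9*).

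The change between populations was also compared between the labels as an interaction. None of the 10 genes was called for the step from monocytes to pre-RPMs, from pre-RPMs to RPMs or from monocytes to RPMs, by edgeR or DESeq2, with 0%, 0.107% and 0.0318% of all genes called. At an unadjusted p under 0.05 the count by edgeR was 0 of 10 for each step, against 3.8%, 7.52% and 4.84% of all genes. The intervals allowed differences of up to 1.65-fold (*Tapbp*), 1.62-fold (*Psmb10*) and 1.68-fold (*B2m*).

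The immunoproteasome takes shape when *Psmb8*, *Psmb9* and *Psmb10* replace *Psmb5*, *Psmb6* and *Psmb7*, their constitutive counterparts. Per exon length, *Psmb8* was 2.45 to 5.49 times *Psmb5* and *Psmb10* was 2.31 to 5.97 times *Psmb7*, above 1 in 24 of 24 libraries. *Psmb9* was 0.311 to 0.718 times *Psmb6*, below 1 in all 24. The size of these ratios depends on the annotated exon lengths. Without division by length, group means were 16.5 to 18.05 CPM for *Psmb9* and 17.7 to 21.3 CPM for *Psmb6*. Those of *Psmb10* were 20.8 to 29.96 CPM and those of *Psmb7* 10.6 to 16.95 CPM. *Psmb5* rested on 16 to 36 counts per library, which limits the first ratio. Of 21 comparisons of these ratios, none passed after adjustment (exact 2-sided permutation tests, 4 against 4, smallest possible p = 0.0286). With this floor a single comparison could not pass, so the absence of a call says little. The lowest was *Psmb10* to *Psmb7* from WT monocytes to WT pre-RPMs, with a ratio of 2.31, 3.34, 2.73 and 3.41 and then 5.64, 5.97, 3.66 and 4.12 (log2 difference 0.70, exact permutation p = 0.0286, adjusted p = 0.6).

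Larger changes were found among related genes of the pathway, in lists chosen with earlier results of these data known. Of 8 tested genes for peptide loading and trimming, 5 rose and 1 fell from pre-RPMs to RPMs under each label. Of all genes tested at this step, 25.6% were called higher and 24.8% lower in WT mice, and 27.3% and 26.7% in mice labelled *Il1rl1-/-*, and the counts of each list below stand beside these shares. In WT mice the chaperone *Hspa5* rose by 0.91 in log2 (SE 0.15, edgeR's adjusted p = 0.000118), *Canx* (calnexin) by 0.89 (SE 0.17, edgeR's adjusted p = 0.00058) and *Erap1*, which trims peptides, by 0.68 (SE 0.13, edgeR's adjusted p = 0.000417), while *Erp29* changed by −0.999 (SE 0.10, edgeR's adjusted p = 1.21e-06). *Hspa5*, *Canx* and *Erp29* serve the folding of many secreted proteins. Of 8 genes for the constitutive proteasome and its activators, 1 rose and 2 fell in WT mice, and 1 rose and 1 fell in mice labelled *Il1rl1-/-*. *Psme3*, which encodes a nuclear activator, rose by 1.41 (SE 0.39, edgeR's adjusted p = 0.00752) and 1.38 (SE 0.29, edgeR's adjusted p = 0.000796). The falls were in *Pomp* under both labels (−0.58 and −0.37, edgeR's adjusted p = 0.00149 and 0.0065) and in *Psme2* in WT mice (−0.52, edgeR's adjusted p = 0.00442).

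**Figure D4:**
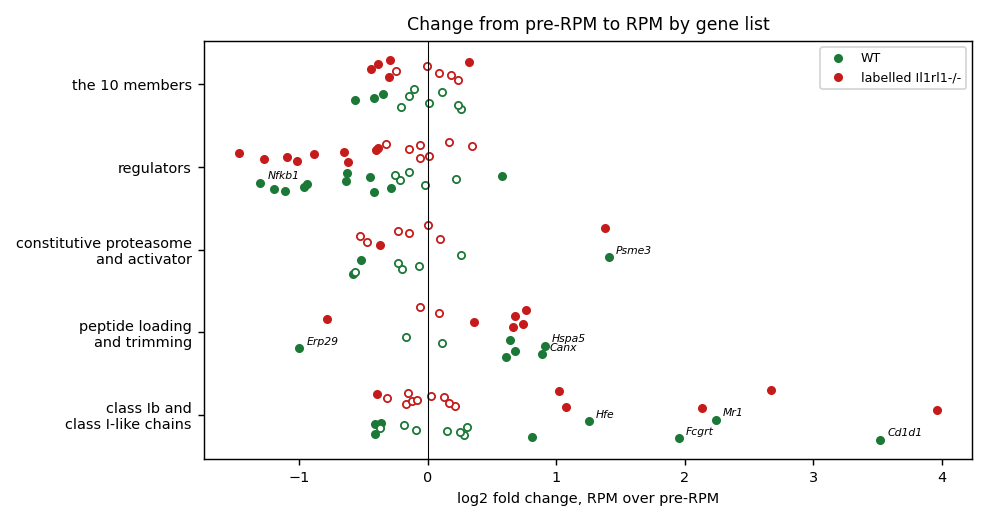
Log2 fold changes from pre-RPMs to RPMs for the genes tested in 4 related lists and for the 10 genes (top), in WT mice and mice labelled *Il1rl1-/-*. Filled points passed edgeR's test at an adjusted p under 0.05 and open points did not. The 10 genes lie between −0.56 and 0.32, and class I-like chains such as *Cd1d1* reach 3.97.

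The largest rises in the related lists at this step were in class I-like heavy chains, which also pair with beta 2-microglobulin. Of 15 tested, 5 rose under each label, and 3 fell in WT mice and 1 in mice labelled *Il1rl1-/-*, where 25.6% and 27.3% of all genes were called higher and 24.8% and 26.7% lower. *Cd1d1*, which presents lipids to NKT cells, was at a mean of 2.86 CPM in WT pre-RPMs and 34.3 CPM in WT RPMs, or 3.52 higher in log2 (SE 0.16, adjusted p = 4.69e-10 by edgeR). Labelled *Il1rl1-/-*, it went from 2.05 to 35.4 CPM, or 3.97 higher in log2 (SE 0.20, adjusted p = 1.4e-10 by edgeR). *Mr1*, which presents vitamin B metabolites, rose by 2.24 and 2.67, and *Fcgrt*, the neonatal Fc receptor, by 1.95 and 2.13 in WT mice and mice labelled *Il1rl1-/-*. *H2-T23*, which encodes the peptide-binding Qa-1, changed by −0.41 and −0.39.

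Of 16 regulators of class I transcription, 1 rose and 10 fell from pre-RPMs to RPMs in WT mice, and 0 rose and 9 fell in mice labelled *Il1rl1-/-*, against 24.8% and 26.7% of all genes called lower and 25.6% and 27.3% called higher. In WT mice *Nfkb1* changed by −1.30 (SE 0.11, edgeR's adjusted p = 2.39e-07). *Ifngr2* and *Ifngr1*, the chains of the interferon-gamma receptor, changed by −1.20 and −1.11. In mice labelled *Il1rl1-/-* these values were −1.47, −1.27 and −1.02, and *Irf2*, at −1.096, lay between the last 2. *Rfx5*, a factor of the X box, rose in WT mice by 0.58 (SE 0.15, edgeR's adjusted p = 0.00611), and *Irf1* fell in WT mice by 0.29 (SE 0.10, edgeR's adjusted p = 0.0283). Neither was called in mice labelled *Il1rl1-/-*, with changes of 0.35 and −0.06 (edgeR's adjusted p = 0.0642 and 0.69). Of 8 genes linked to cross-presentation, the loading of peptides from ingested proteins, 2 rose and 4 fell in WT mice, and 2 rose and 3 fell in mice labelled *Il1rl1-/-*, where 50.4% and 54.1% of all genes were called in either direction. *Rab27a*, a GTPase of vesicle traffic, changed by −2.70 in WT mice and −3.003 in mice labelled *Il1rl1-/-*. *Cybb*, the catalytic chain of the phagocyte oxidase, changed by −2.36 in WT mice and −2.55 in mice labelled *Il1rl1-/-*. The rises were in *Wdfy4* (0.63 and 0.42) and *Unc93b1* (0.54 and 0.54), in WT mice and mice labelled *Il1rl1-/-*. Between the labels, no gene of these 5 lists was called in any population.

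By the smallest root mean square difference of centred log2 CPM over 24 libraries, the pattern most like that of *Nlrc5* was that of *Fars2* (0.197), followed by *Crocc* (0.206), *Tnfaip8* (0.207), *Rab14* (0.212) and *Atf7* (0.214). For *H2-K1* they were *Anp32a* (0.109), *Supt16* (0.134), *Ddb1* (0.134), *Hnrnpk* (0.144) and *H2-K2* (0.145), and *H2-K2* is a paralog whose reads may be shared with *H2-K1*.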

How the data were processed

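RNA of sorted spleen cells was sequenced with a stranded total RNA kit (24 libraries, each a single mouse and population). The 24 ATAC-seq samples were not used here. Trimming by the authors was with cutadapt, alignment with STAR 2.5.1, and read pairs were counted over exons per gene name with featureCounts 1.6.2 (GRCm38, Ensembl 95, strand used). The deposited values are counts, without normalization or filter.

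Each comparison was fitted with edgeR 4.0.16 under R 4.3.3 (limma 3.58.1, filterByExpr, TMM, quasi-likelihood F test, Benjamini-Hochberg over all genes tested, adjusted p under 0.05). The SE and the 95% interval were taken from the F statistic. Directions are the later population over the earlier, and *Il1rl1-/-* over WT. CPM used total counts with TMM factors (0.798 to 1.38), and log2 CPM a prior count of 2. At this depth a count of 3 was 0.457 to 0.842 CPM, counting error only. Ratios were compared with exact 2-sided permutation tests (SciPy 1.17.1), with Python 3.11.15, NumPy 2.4.6, pandas 2.3.3, Biopython 1.88 and matplotlib 3.10.9. Scripts were tested on simulated data.

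The 10 genes and the related lists were chosen with earlier results of these data known. By the rule for names all 10 could be named in every comparison, and those not called are mostly given as counts and ranges. It also allowed at most the 3 largest called rises and falls of each related list, *Psmb5*, *Psmb6*, *Psmb7*, *Irf1* and *Rfx5*, and the 5 genes most like *Nlrc5* and *H2-K1*. A further gene of this rule is not reported here. Of the related genes, *Ero1a* and *H2-L* were not matched to a name in the tables.

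Within a genotype the labels give each population a mouse number, taken as the same animal, and deviations from the group mean correlated across genes between libraries of the same number at −0.04 to 0.31. Between genotypes the number marks different animals and a shared i5 index, with a correlation of 0.12 to 0.45 in monocytes, 0.05 to 0.16 in pre-RPMs and 0.15 to 0.18 in RPMs. The number was tried as a block. The other alternatives were DESeq2 1.42.0, RLE size factors, other filters, removal of *Gm42418*, all 24 libraries in a single fit, a threshold of adjusted p under 0.01 with an absolute log2 fold change above 1, a pseudocount of 0.5 for the ratios, and each library left out in turn.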

Additional observations from a re-analysis of the deposited data

Results flagged for a closer look

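Among 60 groups of 4 libraries (10 genes in 6 groups), 2 held a library far from the other 3 by Dixon's test, where chance gives about 1 in 20. *B2m* was at 501.4 CPM in RPM library 3 of WT mice, against 342 to 345 CPM in the other 3. The gap was 0.98 of the range of the group, above the limit for groups of 4. *Psmb10* was at 27.83 CPM in pre-RPM library 4 of WT mice, against 30.4 to 30.9 CPM in the others, a gap of 0.858 of the range.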

How the results depend on the processing

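Over 2040 values of single genes under the alternatives, 1980 kept their direction and their side of the threshold or were called in neither fit, 45 lost a call, 15 gained one and 0 reversed. Values called in neither fit changed sign 134 times. With the stricter threshold (adjusted p under 0.01, log2 fold change past 1 in size), 0 of the 10 genes were called in each comparison between populations. With all 24 libraries in a single fit, the counts of called genes became 1 for monocytes to pre-RPMs and 2 for pre-RPMs to RPMs, both labelled *Il1rl1-/-*, in place of 0 and 5, and 2 in place of 3 for WT pre-RPMs to WT RPMs. With every gene of at least 1 count, and with at least 10 counts in every library, 1 gene in place of 2 was called from WT monocytes to WT RPMs. The first of these filters also gave 2 in place of 3 from WT pre-RPMs to WT RPMs, 4 in place of 5 from pre-RPMs to RPMs and 2 in place of 3 from monocytes to RPMs, both labelled *Il1rl1-/-*. DESeq2 gave 2 in place of 3 from WT pre-RPMs to WT RPMs and 4 in place of 3 from monocytes to RPMs labelled *Il1rl1-/-*. The replicate block called 2 in place of 0 from monocytes to pre-RPMs labelled *Il1rl1-/-*, and beside the calls named in the report it changed no other.

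Leaving out each library gave 1 to 3 called genes from WT pre-RPMs to WT RPMs (1 without pre-RPM library 3 or RPM library 4), 0 to 2 from WT monocytes to WT RPMs, 0 to 1 from monocytes to pre-RPMs labelled *Il1rl1-/-* (1 without pre-RPM library 1) and 3 to 5 from pre-RPMs to RPMs labelled *Il1rl1-/-* (3 without pre-RPM library 1 or 4). The count from WT monocytes to WT RPMs was 0 without monocyte library 2 or 3 or RPM library 1 or 2, and 1 without monocyte library 1 or 4 or RPM library 4. *Psmb10* from WT pre-RPMs to WT RPMs, *Psmb8* from pre-RPMs to RPMs labelled *Il1rl1-/-*, and *B2m* and *Nlrc5* from monocytes to RPMs labelled *Il1rl1-/-* kept their call, at an adjusted p under 0.05, in every fit run. The cause of the lost calls was not tested. For the proteasome ratios the pseudocount changed no call, and neither the block nor leaving out a library was run, since 4 pairs cannot give a p under 0.125, nor 3 against 4 under 0.0571. The leave-one-out values of the heavy chain ratios were added after the data were seen. *H2-K1* and *H2-D1* reads of Balb/c mice were counted on the C57BL/6J reference, and the effect of this on their levels was not tested.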

Other observations

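In 41 of 60 cases (10 genes in 6 groups) the library numbered 3 was the highest of its 4, against 9, 7 and 3 cases for the libraries numbered 1, 2 and 4. How often this held over all genes was not counted, so it is not shown to be particular to these 10 genes. *Tap1* was highest in library 3 in all 6 groups, *B2m*, *H2-K1*, *H2-D1* and *Psmb8* in 5 of 6, and *Nlrc5* in 2 of 6. Same-numbered libraries share an i5 index in the labels. *Gm42418* took 31.0% to 37.9% of the counts in libraries numbered 3 and 25.2% to 28.5% in those numbered 1, and the TMM factors were 0.80 to 1.04 and 0.98 to 1.38. This was noticed after the values were seen, and its part in the results was not tested.

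H2-Ea-ps, a pseudogene in the C57BL/6J reference, had 335 to 1137 counts in every library of these Balb/c mice.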
